A study of Sus scrofa with 33 samples.

Results

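Haemoglobin and 6 further genes of the red-cell line were followed in the pituitary gland of pigs at thermoneutrality and under heat stress. The 8 members were HBB, haemoglobin alpha (given by its transcript identifier, ENSSSCT00000008741), AHSP, HBE1, SLC4A1, EPB42, ALAS2 and CA1. The probes with deposited expression values name 10293 genes. Every probe was taken whose gene name or described symbol was a member, together with every probe described as haemoglobin subunit alpha. This gave 16 probes, of which 11 are among the 45667 probes with deposited expression values. The list of genes was chosen by the log2 difference of haemoglobin between heat stress and thermoneutrality in these same arrays, so that difference is given here as a description, without a test. The question was which red-cell genes followed haemoglobin in heat.

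Red cells are made in the bone marrow, and in mammals the mature cell has lost its nucleus. Young red cells that have just entered the blood, the reticulocytes, still carry messenger RNA, most of it for globin, so globin messages are found in whole blood. Haemoglobin joins alpha-type and beta-type chains to haem, AHSP stabilises free alpha chains, ALAS2 starts haem synthesis, and SLC4A1 and EPB42 belong to the red-cell membrane. The pituitary is a richly vascularised endocrine gland at the base of the brain.

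RNA of 33 glands was hybridised, 1 gland to an array, on Agilent 1-colour porcine arrays. The glands came from castrated male growing pigs of Large White (LW), Creole (CR) and their F1 cross, which had entered a climatic room at 11 weeks of age. Thermoneutral (TN) pigs were held at 24 °C and gave 5 LW, 5 CR and 6 F1 arrays. Heat-stressed (HS) pigs were slaughtered in the last days of a heat period of 5 days and gave 6 LW, 6 CR and 5 F1 arrays. The sample labels give the temperature of the heat as 30 °C, whereas the series text and the methods give 32 °C. TN pigs were slaughtered before the rise in temperature and HS pigs after it, so slaughter day and age cannot be told apart from heat. The paper also reports that pigs ate less in the heat, and feed intake cannot be told apart from heat either. Pigs were littermates and pen mates in a way the labels do not give, and p-values here take the arrays as independent. The array titled LW HS 3 carries the breed entry Creole; it was kept with its title, and moving it to Creole changed no call for a member.

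Of the probes on an array, 73.5% to 82.2% were well above background, and no spot was saturated. Hormone genes of the anterior lobe were bright (7 of 7 genes, mean log2 levels 14.9 to 19.0), and so were AVP and OXT of the posterior lobe (16.98 and 15.66), although the methods name the anterior lobe as the tissue sampled. A pair of TN arrays, LW TN 2 and CR TN 1, stood apart. Over 27 probes of 11 endothelial genes their mean levels were 9.61 and 9.33 on the log2 scale, and the next array had 8.99. They also had the highest SLC4A1 signals and the highest haemoglobin alpha signals of all arrays, and results that rest on them are given below with and without them.

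The haemoglobin alpha probe (A_72_P159746) is shown whole because the other members were read against it; this and the other sequences are probe sequences of the array files, 5′ to 3′.
Haemoglobin alpha: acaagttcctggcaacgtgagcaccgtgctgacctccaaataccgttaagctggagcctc

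Haemoglobin alpha was lower in HS than in TN in each breed. All levels below are log2 intensities of a single probe. In LW TN the 5 arrays read 15.55, 15.66, 16.14, 16.27 and 16.61, and in LW HS the lowest, median and highest were 14.55, 15.16 and 15.85. Of the 6 LW HS arrays, 5 lay below every LW TN array. In CR TN the values were 14.95, 15.34, 16.07, 16.29 and 16.87, and in CR HS the lowest, median and highest were 13.35, 14.55 and 15.48. Here 3 of the 6 CR HS arrays lay below the CR TN range and 3 within it. In F1 TN the lowest, median and highest were 14.80, 15.80 and 16.52, and the 5 F1 HS arrays read 13.64, 13.77, 14.37, 14.51 and 14.58. The F1 groups did not overlap.

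The mean alpha level was 15.89 ± 0.62 in TN (SD, n = 16) and 14.63 ± 0.73 in HS (n = 17). With breed in the fit, HS minus TN was -1.30 (SE 0.21) on the log2 scale, which put HS at 40.6% of the TN signal. Each of the 17 HS readings was under the average of TN for its own breed. By breed the difference was -0.96 in LW, -1.36 in CR and -1.58 in F1 (SE 0.37 each). On each of the 5 slides, which held both temperatures, HS was lower, with differences from -0.27 to -2.08, and the value with slide as a block was -1.31. Slide differences here and below are not adjusted for breed. On 1 slide, with 1 TN array (LW) and 2 HS arrays (CR and F1), temperature and breed cannot be told apart. Without LW TN 2 and CR TN 1 it was -1.19 (SE 0.22). In bulk RNA, fewer red cells in the gland and less globin RNA per cell cannot be told apart.

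In the order of the group means of alpha, LW TN (16.04), CR TN (15.91) and F1 TN (15.75) came before LW HS (15.08), CR HS (14.54) and F1 HS (14.17). The step from F1 TN to LW HS, 0.67, was the only one larger than the spread within groups (SD 0.65). Steps between neighbouring groups of the same temperature were smaller than this SD. It is the spread of single arrays and not the error of a difference between means, so it tests no difference between groups.

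**Figure D1:**
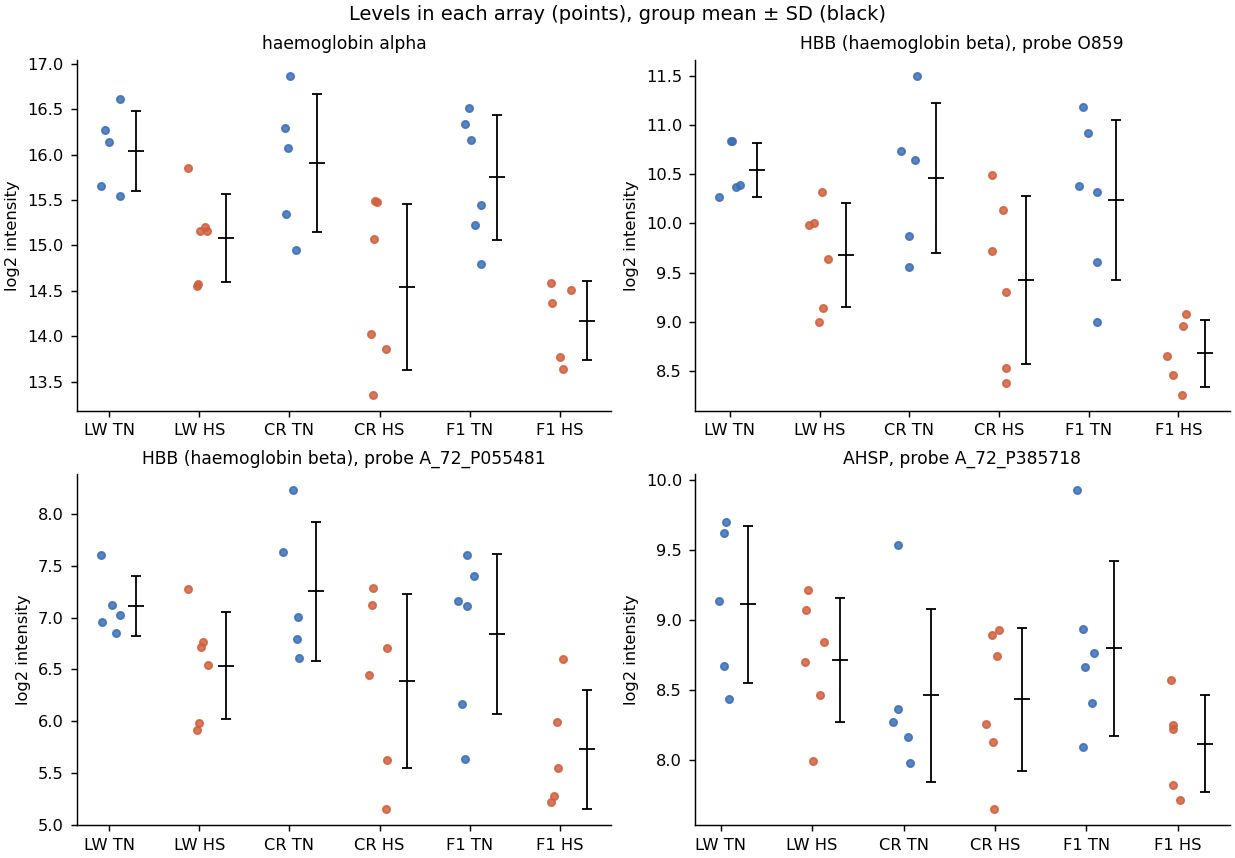
Log2 intensity of haemoglobin alpha, both HBB probes and one AHSP probe in each array (points; blue TN, red HS), with the mean ± SD of each breed-by-temperature group in black. For haemoglobin alpha the F1 HS arrays (13.64 to 14.58) lie below all F1 TN arrays, while the AHSP probe overlaps between temperatures in every breed.

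The beta chain of adult haemoglobin, HBB, had 1 probe by the rule (O859). A further probe (A_72_P055481) is tied to HBB through a transcript identifier alone; it was added after its values had been seen, and its HS minus TN is likewise a description. The first 30 bases of each are shown because the probes share no stretch longer than 7 bases.
HBB, O859: ctttaaaacagaaaagacttacatttgctt
HBB, A_72_P055481: cctttagaaaaggaatcaagcttgattggc

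HBB was lower in HS in every breed, as alpha was. In LW TN probe O859 read 10.27, 10.37, 10.39, 10.83 and 10.84, against a lowest, median and highest of 9.0, 9.81 and 10.32 in LW HS. All but 1 of the LW HS arrays lay below the LW TN range. In CR TN it read 9.56, 9.87, 10.64, 10.73 and 11.50, and in CR HS 8.38, 9.51 and 10.49 were the lowest, median and highest. As for alpha, 3 of the CR HS arrays lay below the CR TN range. In F1 TN the lowest, median and highest were 9.0, 10.35 and 11.18, and the F1 HS arrays read 8.26, 8.46, 8.66, 8.96 and 9.08. Of the 5 F1 HS arrays, 4 lay below every F1 TN array.

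The mean HBB level (O859) was 10.40 ± 0.64 in TN and 9.30 ± 0.72 in HS (SD, n = 16 and 17). HS minus TN was -1.15 (SE 0.21), or 45.1% of the TN signal, and 16 of 17 HS readings were under the TN average of their breed. The difference was -0.86 in LW, -1.03 in CR and -1.55 in F1 (SE 0.37 each), lay between -0.32 and -1.82 on the 5 slides, and was -1.06 without the pair of arrays that stood apart. The drop from CR HS to F1 HS, 0.75, was the only step between neighbouring HBB group means above the spread within groups (SD 0.65).

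The further HBB probe ran from 5.63 to 8.23 in TN and from 5.15 to 7.28 in HS, with HS minus TN of -0.85 (SE 0.21), and 15 of 17 HS readings were under the TN average of their breed. With the scanner's background-subtracted signal the difference was -1.39, and with normexp background correction -0.62. The probe was well above background on 16 of 16 TN arrays but on 14 of 17 HS arrays, and on 3 of 5 in F1 HS. So both HBB probes were lower in HS, at different distances from the background.

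Across all probes, 0.0219% (10 of 45667) passed an adjusted p of 0.05 for HS minus TN and 0.0175% (8 of 45667) did so with the lower level in HS (limma, Benjamini-Hochberg over all probes). Since the haemoglobin probes were picked on this contrast, members are not counted against these shares. The median difference over all probes was 0.01, and 45.35% of them were lower in HS.

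A second probe described as haemoglobin alpha (A_72_P198167) carries TC558094 as its name, and its transcript assembly is described as matching the alpha chain only in part. Its first 30 bases are shown, since its sequence shares no stretch longer than 4 bases with the alpha probe above.
TC558094: ttaaaggcagtatcttttgtactgtgaatc
This probe showed no difference beyond its SE, with 8.06 ± 0.13 in TN and 8.06 ± 0.15 in HS, HS minus TN of 0.00 (SE 0.05), and a range over all 33 arrays of 7.72 to 8.31. Deviations of this probe from its group means did not rise with those of alpha (r = -0.23).

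AHSP, the chaperone of free alpha chains, is measured by 2 probes with the same 60 bases (O4980 and A_72_P385718), of which the first 30 are shown. They are repeat measures of 1 sequence; over the 33 arrays their levels had r = 0.96, and A_72_P385718 read 0.25 ± 0.23 (SD) above O4980.
AHSP: tgtctaagaaacccttaaatgccgcttctg

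AHSP was lower in HS on average, by less than haemoglobin, and of the breeds F1 had the lowest HS minus TN. In F1 TN the lowest, median and highest of O4980 were 8.06, 8.64 and 10.09, and the F1 HS arrays read 7.30, 7.39, 7.87, 7.88 and 8.18. Of these 5 arrays, 4 lay below every F1 TN array. In LW TN it read 7.86, 8.27, 9.02, 9.62 and 9.69, with 7.61, 8.68 and 9.03 as the lowest, median and highest of LW HS. In CR TN it read 7.60, 8.0, 8.02, 8.09 and 9.19, with 7.25, 8.13 and 8.66 in CR HS. Most HS arrays of LW and CR therefore fell within the TN range of their breed.

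For O4980 the mean was 8.61 ± 0.74 in TN and 8.12 ± 0.61 in HS, and HS minus TN was -0.51 (SE 0.21). For A_72_P385718 it was -0.37 (SE 0.17). On these probes 12 and 13 of 17 HS readings were under the TN average of their breed. Within F1 the differences were -1.01 (SE 0.36) and -0.68 (SE 0.30), within LW -0.37 and -0.40, and within CR -0.14 and -0.03. The LW value of O4980 was -0.63 without LW TN 4, -0.19 without LW TN 1 or LW HS 3 and -0.17 without LW TN 5, and that of the repeat probe was -0.25 without LW TN 1 or LW HS 3. The CR values turned to 0.12 and 0.24 without CR TN 1, the array with the highest AHSP signal of its group, and also turned without CR HS 3 (0.02 and 0.03). With 1 array left out they ran from -0.28 to 0.12 and from -0.15 to 0.24, so no direction is given for CR. On the slides, 4 of 5 had lower AHSP in HS by O4980, and the slide values ran from -1.83 to 0.64. The value of -1.83 is that of the slide with 1 TN array.

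HBE1 encodes the epsilon chain, a beta-type globin of the embryo. The probes by the rule are A_72_P104806 and A_72_P223877, and another is tied to HBE1 by an accession alone. The last of these shares 40 bases with A_72_P223877, shown in capitals, so the readings of this pair are not independent. The third probe was added after its values had been seen.
HBE1, A_72_P223877: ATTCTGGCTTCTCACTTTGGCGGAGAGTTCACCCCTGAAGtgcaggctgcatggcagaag
HBE1, the third probe: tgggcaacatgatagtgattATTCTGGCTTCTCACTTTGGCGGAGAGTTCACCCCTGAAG

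All HBE1 signals lay near the background of the array. A_72_P104806 was well above background on 13 of 16 TN arrays and on 5 of 17 HS arrays, and A_72_P223877 on 15 and 10. A_72_P104806 read 5.65 ± 0.27 in TN and 5.34 ± 0.18 in HS, a difference of -0.31 (SE 0.08), and 16 of 17 HS readings were under the TN average of their breed. In F1 it was above background on none of the 5 HS arrays and on 4 of 6 TN arrays, so that F1 TN (mean 5.65) was at least 1.31-fold above F1 HS, with the dim group at its bound of 5.27 and a measured mean of 5.20. A_72_P223877 read 5.69 ± 0.21 in TN and 5.48 ± 0.14 in HS, a difference of -0.22 (SE 0.07), lower on 15 of 17. The third probe gave -0.13 (SE 0.07).

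These HBE1 sizes depended on how the background was treated. With the scanner's background-subtracted signal the differences of the 3 probes were -0.98, -0.57 and -0.37. HBE1 and HBB are related beta-type genes, and cross-hybridisation between their probes was not tested.

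SLC4A1, the chloride and bicarbonate exchanger of the red-cell membrane known as band 3, and EPB42, the protein 4.2 that binds to it, were measured by O801 and O5966. A second SLC4A1 probe (A_72_P070746) has no deposited values and was well above background on 4 of 33 arrays. The first 30 bases of the measured probes are given to mark what was read.
SLC4A1, O801: ttgtacttgttctccatggttgaaataaaa
EPB42, O5966: gttcaccctcctctttaacccctggagtca

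Neither membrane gene followed haemoglobin in heat. SLC4A1 read 11.48 ± 0.35 in TN and 11.47 ± 0.17 in HS, a difference of -0.03 (SE 0.09), and the HS arrays (11.11 to 11.72) lay almost wholly inside the TN range (11.13 to 12.34). Its highest readings, 12.34 and 12.26, were those of LW TN 2 and CR TN 1, and without these arrays the difference was 0.09 (SE 0.06). EPB42 read 7.05 ± 0.17 in TN and 7.0 ± 0.21 in HS, a difference of -0.04 (SE 0.06), and ran from 6.57 to 7.38 over all arrays. The TN and HS arrays of EPB42 overlapped in each breed.

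ALAS2, the red-cell form of the first enzyme of haem synthesis, and CA1, a carbonic anhydrase abundant in red cells, were not lower in HS by more than 1 SE. ALAS2 (O895) read 6.98 ± 0.29 in TN and 6.94 ± 0.31 in HS, a difference of -0.03 (SE 0.09), and ran from 6.30 to 7.63. No ALAS2 transcript was used here to check which strand its probe reads.
ALAS2, O895: tgtcttgaaagtcttcacatcctcttgaac

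CA1 has 5 probes, of which only A_72_P661376 has deposited values. It read 8.32 ± 0.90 in TN (6.38 to 9.40) and 8.51 ± 0.39 in HS (7.86 to 9.32), a difference of 0.20 (SE 0.22), and 11 of 17 HS readings were above the TN average of their breed. Without F1 TN 3, whose 6.38 was the lowest CA1 reading, the difference was 0.07. The TN arrays were more spread than the HS arrays and enclosed them in CR. Of the other 4 probes, 3 have identical bases and were well above background on 1 to 4 arrays, and A_72_P532868 on 18 of 33, 3 in each group. A_72_P532868 shares a stretch of 28 bases with A_72_P661376, shown in capitals within the bases around it.
CA1, A_72_P661376, bases 32 to 60: aGAACACAAATCTGCTTCTGACATAATCC
CA1, A_72_P532868, bases 10 to 39: gGAACACAAATCTGCTTCTGACATAATCCa

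**Figure D2:**
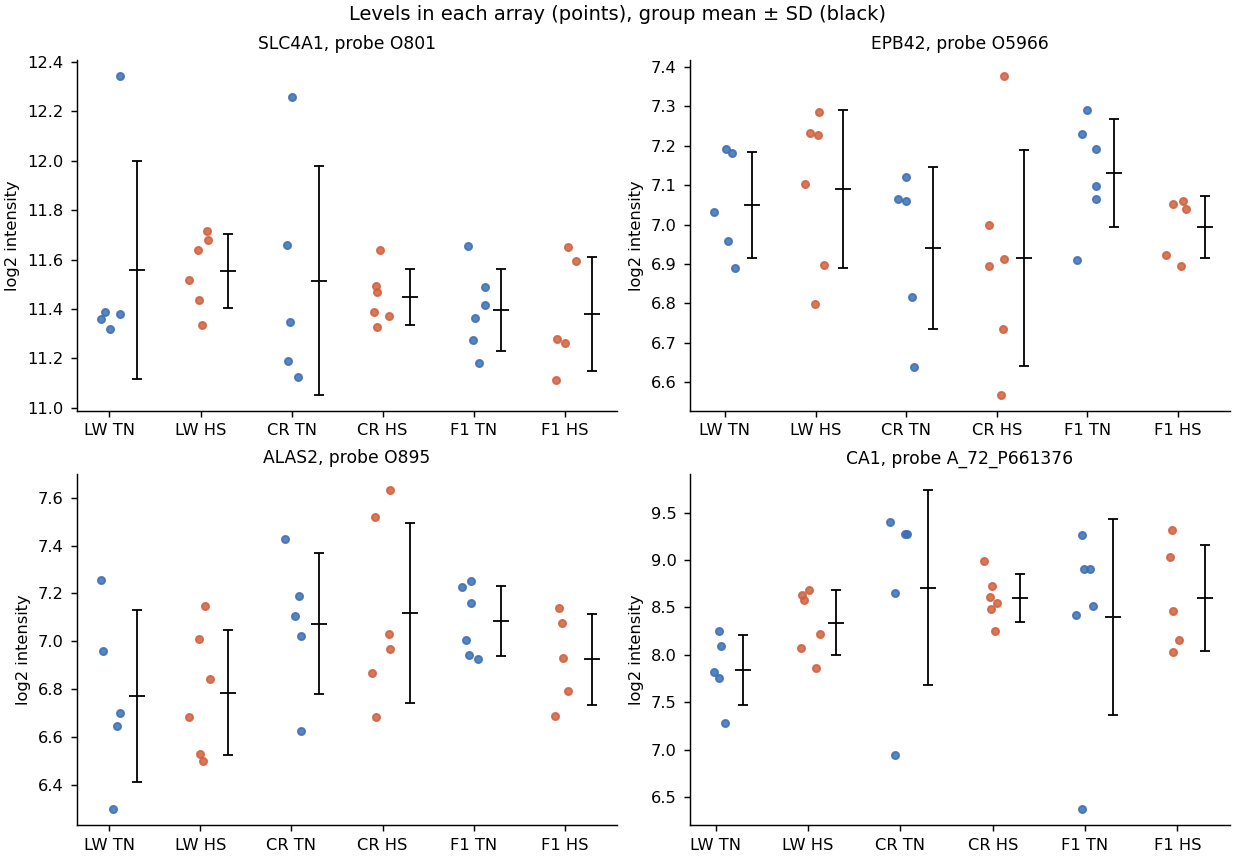
Log2 intensity of SLC4A1, EPB42, ALAS2 and CA1 in each array (points; blue TN, red HS), with group mean ± SD in black. The TN and HS points overlap for every gene and breed, and the 2 SLC4A1 points above 12 are LW TN 2 (12.34) and CR TN 1 (12.26).

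Across the members, haemoglobin alpha and HBB were lower in HS by more than 1 log2 unit, and AHSP by 0.37 to 0.51. HBE1 was lower near background by a size that depended on the background treatment, and is not ranked against the others. SLC4A1, EPB42, ALAS2 and the second alpha-described probe moved by less than 0.05, and CA1 was higher by 0.20 with an SE of 0.22.

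**Figure D3:**
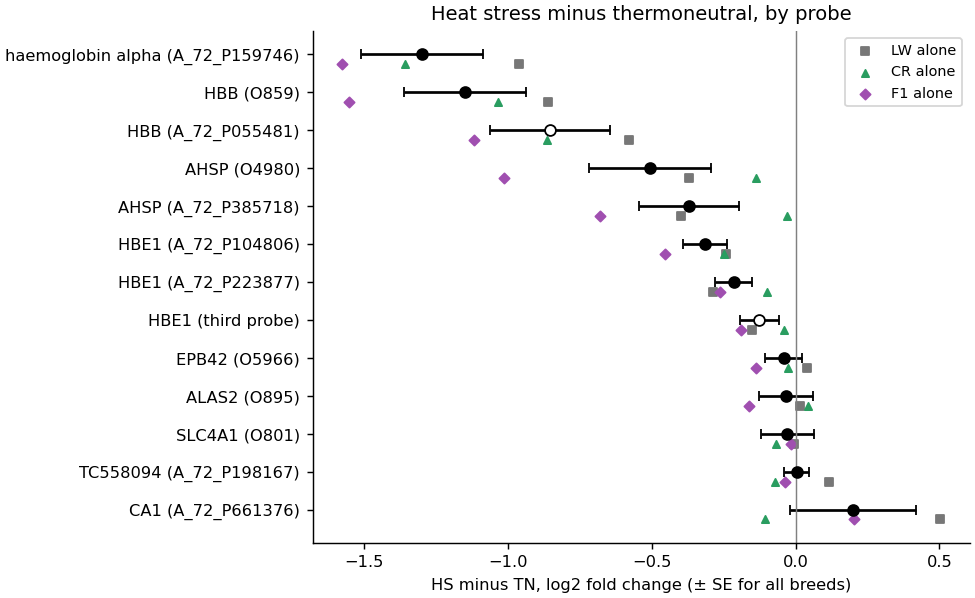
HS minus TN (log2 fold change) for each probe over all breeds (black circles, bars ± SE; open circles are the 2 probes added after their values were seen) and within LW, CR and F1 (coloured marks, no error shown). Haemoglobin alpha (-1.30) and HBB (-1.15) lie farthest to the left, and for both the F1 mark is the lowest.

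Whether the drop differed between breeds was tested by the breed by temperature interaction, which had no part in picking the members. No probe of 45667 passed in limma (0%), with 1941 at an unadjusted p under 0.05, and no member probe reached an unadjusted p of 0.05. For AHSP O4980, with -1.01 in F1 and -0.14 in CR, the adjusted p of the interaction was 0.926 (limma). The larger F1 values of haemoglobin and AHSP were thus not shown to differ from those of the parent breeds.

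Breed levels, with temperature in the fit, gave no call for a member either. Between LW and CR 6.65% of all probes passed, between F1 and LW 1.48%, and between F1 and CR 6.86%, and 0 of the 11 member probes passed in each of these comparisons (limma, Benjamini-Hochberg; 4, 3 and 1 at an unadjusted p under 0.05, as were 18.7%, 13.9% and 21.8% of all probes). The difference F1 minus LW was -0.65 (SE 0.26) for HBB with an adjusted p of 0.227, and -0.61 (SE 0.26) for haemoglobin alpha with an adjusted p of 0.269. AHSP O4980 was 0.58 (SE 0.26) higher in LW than in CR with an adjusted p of 0.206.

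ALAS2 was the member closest to a breed call, at -0.32 (SE 0.11) in LW against CR with an adjusted p of 0.0925. With slide as a fixed block it was -0.28 with an adjusted p of 0.0152, as a random block -0.30 with an adjusted p of 0.0485, without CR TN 1 -0.37 with 0.0412 and without LW TN 5 -0.37 with 0.0471, and over all alternatives the adjusted p ran from 0.0152 to 0.175. The second alpha-described probe, TC558094, was 0.15 (SE 0.06) higher in F1 than in CR with an adjusted p of 0.0987, which became 0.0278 with slide as a fixed block and 0.0321 without CR TN 2. Without CR TN 2 it also passed between LW and CR (0.17, adjusted p = 0.0388).

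Pigs of 1 breed and temperature also differed from each other in haemoglobin, and these differences hold nothing of the heat contrast. For each array the deviation from its group mean was taken, and each probe was set against haemoglobin alpha over the 33 arrays. Of 10 member probes 1 passed, against 0.00219% of all probes (1 of 45666, the same probe). It was HBB O859, which rose by 0.85 (SE 0.10) log2 units per unit of alpha with an adjusted p of 3.397e-05 (limma). Pearson's r was 0.855 and Spearman's rho 0.851, each with a permutation p of 1e-05, the smallest that 100000 resamples can give. It was 0.821 without the 2 arrays farthest from the median of alpha (CR TN 1 and CR HS 3), and 0.838 without LW TN 2 and CR TN 1. Within the 4 slides of 6 or more arrays r lay between 0.693 and 0.96.

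AHSP came next among the members. O4980 had a slope of 0.66 (SE 0.13) per unit of alpha, with r = 0.68 (permutation p = 0.0001) and rho = 0.677. It did not pass over all probes (adjusted p = 0.201), and over the alternatives the adjusted p ran from 0.0377, without LW TN 2, to 0.374. Its r was 0.62 without the 2 farthest arrays and 0.667 to 0.801 within slides. The repeat probe gave r = 0.62 (permutation p = 0.0007, adjusted p = 0.235). The further HBB probe had r = 0.625, and 0.762 without the pair of arrays that stood apart.

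The remaining members were loosely related to alpha or not at all. HBE1 A_72_P104806 had r = 0.447 (permutation p = 0.0165, adjusted p = 0.393) and ran from -0.201 to 0.881 within slides. SLC4A1 had r = 0.392 (permutation p = 0.0237, adjusted p = 0.438), which was 0.195 without LW TN 2 and CR TN 1. The other HBE1 probe of the rule had 0.347, CA1 0.206, ALAS2 -0.065 and EPB42 -0.249, with adjusted p-values of 0.50 to 0.919. The family held 12 relations, the 2 added probes included, and adjusted values are over all probes. Both probes of a relation were read from the same array and the same RNA.

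**Figure D4:**
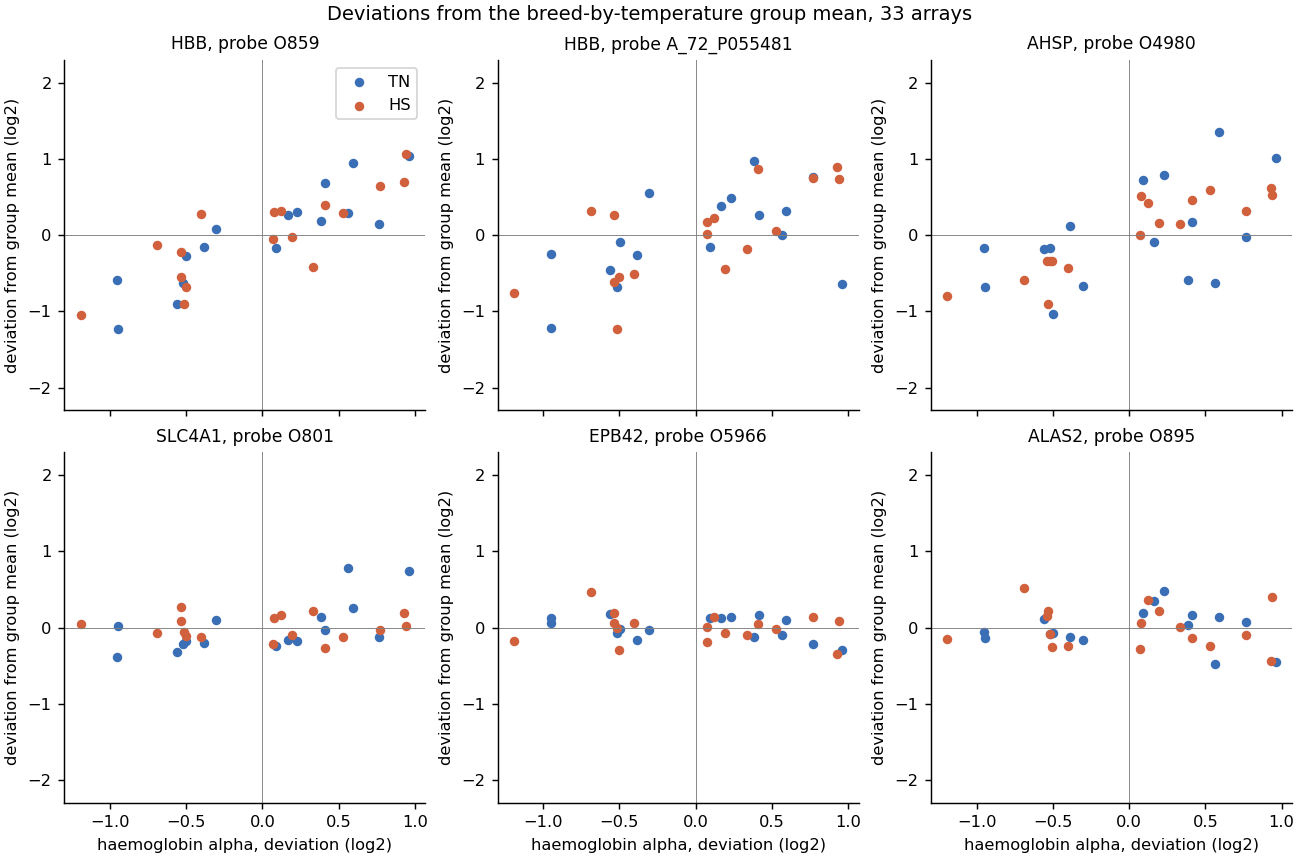
Deviation of each array from the mean of its breed-by-temperature group for haemoglobin alpha (x axis, log2) and 6 probes (y axis, log2; blue TN, red HS). HBB O859 (r = 0.855) and AHSP O4980 (r = 0.68) have the highest r with alpha, and EPB42 (r = -0.249) and ALAS2 (r = -0.065) have r below 0.

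Among 45606 probes ranked by this within-group r over 33 arrays, HBB O859 came first and AHSP O4980 second, where the median probe had r of about -0.0046. An unnamed cDNA probe had 0.667, A_72_P272659 0.665 and A_72_P283694 0.661. FLT1, a receptor for vascular endothelial growth factor, had 0.662 on 1 probe while its other probes had 0.248 to 0.37, and XPNPEP2, an aminopeptidase, had 0.657 against 0.178 and 0.285 on its others. SOX13, a transcription factor, had 0.657 on its only probe, A_72_P512212 had 0.653, and A_72_P116571, described as peptide YY, had 0.651. None of these but HBB passed the adjusted threshold.

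At the other end were A_72_P163731 with -0.76 and a probe of LAMP2, a lysosomal membrane protein, with -0.742. The other LAMP2 probes ran from -0.606 to 0.573, so a single probe does not stand for this gene. Neither passed the adjusted threshold.

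To read the rest of the red-cell programme, 11 lists of 172 genes were read, with 288 probes in all. None of the 288 passed in HS minus TN or in the relation with alpha (limma). An unadjusted p under 0.05 was found for 26 and 37 of them, and for 8.77% and 10.7% of all probes. The list of other globins had 3 of 11 genes with a probe by symbol and 1 of 4 probes lower in HS. HBA1 and HBA2 count as without a probe, since the haemoglobin alpha probe is named by its transcript identifier. HBZ, the embryonic alpha-type chain, had -0.08 (adjusted p = 0.843), and NGB, neuroglobin, 0.16 (adjusted p = 0.567).

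Of the red-cell membrane list 13 of 26 genes had probes, 8 of 19 lower in HS with a median of 0.01. TSPAN33 had 0.12 (adjusted p = 0.526). Of the list on haem synthesis and iron supply 17 of 20 genes had probes, 12 of 34 lower, median 0.02. The mitochondrial carrier SLC25A38 had 0.07 (adjusted p = 0.587) and the iron transporter SLC11A2 had 0.10 (adjusted p = 0.608). The probes of both lists were spread around the median of all probes. Genes without a probe, such as RHAG and KEL, were not read. For all the red-cell lists, the share of signal that came from red cells rather than gland cells was not measured. The lists therefore do not show whether the red-cell part of these signals moved with haemoglobin.

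Of the erythroid transcription factors and erythropoietin signalling genes 11 of 14 had probes, 8 of 16 lower, median 0.00. NFE2, a regulator of globin genes, was 0.33 (SE 0.11) higher with an adjusted p of 0.301, and LDB1, a cofactor, 0.00 (adjusted p = 0.993) on its brightest probe and 0.18 (adjusted p = 0.27) on its other probe. Of the red-cell enzymes and late erythroid genes 18 of 26 had probes, 32 of 58 lower, median -0.01. HAGH, a glyoxalase, had 0.15 (adjusted p = 0.377) and CAT, catalase, -0.13 (adjusted p = 0.675) on its brightest probe.

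The list of haemoglobin and haem clearance had 11 of 13 genes, and 25 of 49 probes lower with a median of 0.00. CD163, the macrophage receptor that takes up haemoglobin bound to haptoglobin, was lower on 6 of 6 probes. Its brightest probe read 9.12 ± 0.47 in TN and 8.70 ± 0.46 in HS, a difference of -0.41 (SE 0.14, adjusted p = 0.329). The smallest adjusted p in the list, 0.081 (limma), was that of the dim CD163 probe A_72_P170001, at -0.24. With slide as a fixed block it was -0.25 with an adjusted p of 0.0488, and as a random block -0.25 with 0.0451. With the scanner's processed signal it was -0.72 with an adjusted p of 0.0352, so its size depended on the background treatment. HMOX1, which breaks haem down, was lower on 5 of 5 probes, at -0.16 on the brightest (adjusted p = 0.64).

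Lists of the other cells that blood or vessel walls bring were read as well. Leukocyte genes (20 of 26) had 27 of 36 probes lower, median -0.06, with CD14 at -0.14 (adjusted p = 0.6) and CD2 at 0.24 (adjusted p = 0.574). Their summed level, on the log2 scale, ran from 13.47 to 14.04 in TN and from 13.38 to 14.35 in HS. Platelet genes (8 of 13) had 10 of 15 probes lower, median -0.01, with GP1BB at 0.04 (adjusted p = 0.847) and GP9 at -0.01 (adjusted p = 0.979). The summed level of this list, 19.22 to 19.31 in both groups, is that of 1 ITGB3 probe (mean 19.28, the next platelet probe 11.88) and says nothing of the other genes. None of these genes was at the background on most arrays. CD2 was dim, however, with means of 5.32 in TN and 5.57 in HS. Over the processing alternatives its difference ran from 0.172 to 0.455.

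Endothelial genes had values in the direction of haemoglobin, without a call. Of 11 genes of 14, 11 were lower in HS on their brightest probe, and 26 of 27 probes were lower, with a median of -0.16 and 11 at an unadjusted p under 0.05, as were 8.77% of all probes. VWF, the clotting factor carrier of vessel walls, had -0.40 (SE 0.13, adjusted p = 0.27), and PLVAP, a protein of fenestrated vessels, -0.33 (SE 0.11, adjusted p = 0.33). All 27 endothelial probes also had a positive slope on alpha within groups, 14 of them at an unadjusted p under 0.05 and none past the adjusted threshold (smallest adjusted p = 0.271, limma). Of all probes 49.29% had a positive slope and 10.7% an unadjusted p under 0.05. The summed level ran from 14.55 to 16.16 in TN and from 14.41 to 15.23 in HS.

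The TN arrays LW TN 2 and CR TN 1 stood apart by their high endothelial levels. Leaving them out lowers the TN endothelial mean by construction, so the values without them are a description only. The mean endothelial level was 8.79 ± 0.31 in TN (SD, n = 16) and 8.63 ± 0.14 in HS (n = 17), and 8.69 ± 0.16 in the 14 TN arrays without them. Without them 21 of the 27 probes were lower in HS, with a median of -0.07 and 2 at an unadjusted p under 0.05, and all 27 slopes on alpha were positive, 5 at an unadjusted p under 0.05. VWF was then -0.22 and PLVAP -0.19, and haemoglobin alpha was -1.19 and HBB -1.06. Since the arrays were left out for their endothelial levels, these values do not separate endothelium from haemoglobin. The part of endothelial content in the haemoglobin difference was not tested.

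Most hormone genes of the gland lay around 0. Of 25 probes of 7 genes 13 were lower in HS, with a median of 0.00; PRL was at 0.06 (adjusted p = 0.759) and FSHB at 0.01 (adjusted p = 0.99). TSHB, the beta chain of thyrotropin, singled out after its value had been seen, had the highest value, 0.36 (SE 0.49, adjusted p = 0.866), and a slope of -0.89 on alpha within groups (adjusted p = 0.433). AVP was at 0.02 (adjusted p = 0.922) and OXT at -0.08 (adjusted p = 0.717), with 3 of 5 posterior lobe probes lower and a median of -0.08.

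**Figure D5:**
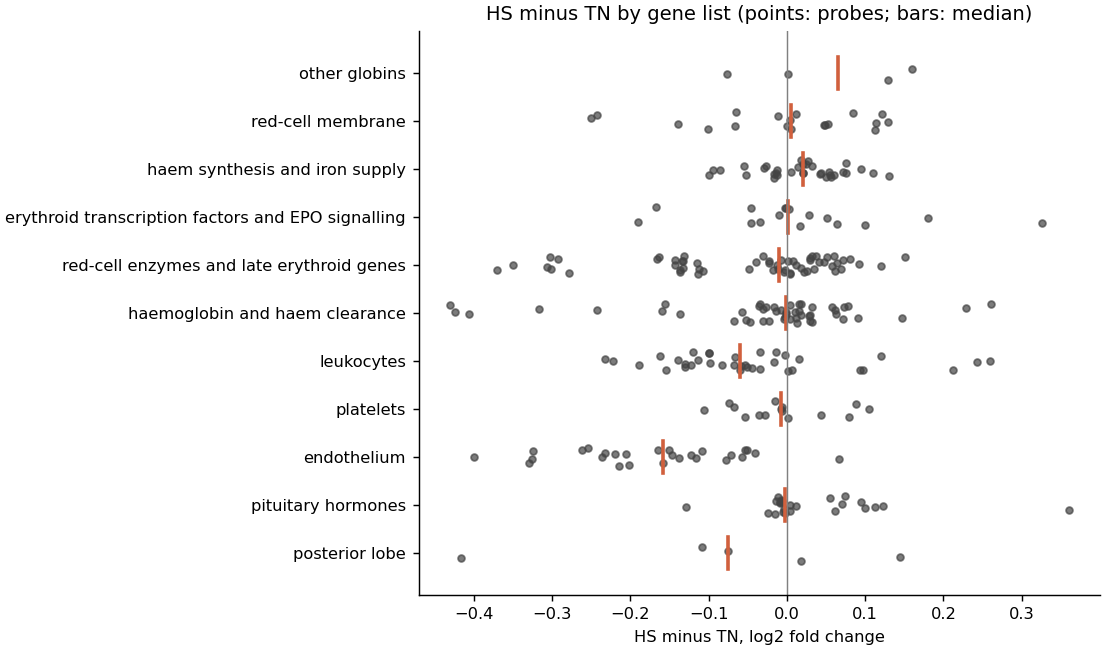
HS minus TN (log2 fold change, x axis) of the 288 probes in 11 gene lists (points), with the median over the probes of each list (red bar). The endothelial list lies to the left of 0 (26 of 27 probes, median -0.16), and the red-cell lists lie around 0.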

How the data were processed

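The authors read each Agilent array with Feature Extraction 10.10.1.1 and deposited 45667 probes as log2 values, made from median pixel intensity without background correction by quantile normalization. These log2 values were the main values; the scanner intensity files deposited per the labels' samples were used for the background flags, saturation, slides, probe sequences and alternatives. Quantile values rebuilt from the scanner intensities differed from the deposited log2 values by a median of 0.00376. All per-sample columns were matched to samples by name. Of the deposited values 59 are missing, and the arrays holding them drop out of the fit for those probes. The number of arrays limits the precision.

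Fits used limma 3.58.1 in R 4.3.3 on all 33 arrays: breed and temperature for HS minus TN and for breeds, and 6 group means for the interaction, within-breed values and the relation with haemoglobin alpha. P-values were two-sided and adjusted by Benjamini-Hochberg over all probes, with a threshold of 0.05. Correlations had two-sided permutation p-values of 100000 resamples (numpy 2.4.6). Fits were tested on simulated data. The study's random effects of pen, slaughter series and parents are not in the labels and were not fitted.

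The members and lists were chosen with earlier results of these data known. Named genes were all member probes, the 2 list genes with the smallest p in HS minus TN where none passed, and the 10 probes most like and 3 least like haemoglobin alpha; for several probes the brightest is given. Of the genes so named, 2 are not reported here. No genome was used here, so no coordinates are given. Alternatives covered the scanner-based values, background correction, slide, array weights, the breed term, the label conflict, a background filter, each array left out and, added after seeing the data, the pair of arrays that stood apart.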

Additional observations from a re-analysis of the deposited data

Results flagged for a closer look

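In groups of 5 or 6 arrays, 3 of 66 sets of a member probe in a group (4.5%) had 1 array far from the rest by Dixon's test, where chance gives about 1 in 20. For SLC4A1 (O801) in LW TN, LW TN 2 read 12.34 and the other arrays 11.32 to 11.39. For AHSP (A_72_P385718) in CR TN, CR TN 1 read 9.54 and the other arrays 7.98 to 8.36. For CA1 (A_72_P661376) in F1 TN, F1 TN 3 read 6.38 and the other arrays 8.42 to 9.26. LW TN 2 and CR TN 1 are the arrays with the highest endothelial levels (9.61 and 9.33), and F1 TN 3 had 8.85.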

How the results depend on the processing

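Over 77 results and 3263 alternative values (10 alternatives and 33 fits without 1 array each), 3167 kept their direction and side of the threshold or stayed within the spread, 8 passed the threshold in addition, 48 moved and 40 values with a test changed sign. HS minus TN of haemoglobin alpha lay between -1.06 and -1.31 (-1.22 to -1.37 without 1 array) and that of HBB between -0.96 and -1.18 (-1.08 to -1.22). The slope of HBB on alpha lay between 0.83 and 0.96 (0.80 to 0.89).

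The number of probes called in HS minus TN, 10, was 23 with the scanner's processed signal, 92 with slide as a fixed block, 54 as a random block, 6 with array weights, 4 without the breed term and 6 without LW TN 2 and CR TN 1; it ran from 6 to 37 with 1 array left out (37 without F1 TN 3). Within LW 6 probes passed with array weights and 5 without the pair (0 to 4 with 1 array left out), within CR 1 with array weights (0 to 2), and within F1 0 to 2. In the interaction 1 probe passed without the pair (0 to 1). Of the member probes 1, ALAS2, passed between LW and CR with slide fixed or random (0 to 1, where the 1 was ALAS2 without CR TN 1 or LW TN 5 and TC558094 without CR TN 2), and 1, TC558094, between F1 and CR with slide fixed (0 to 1). In the relation with alpha 2 probes passed without the pair, HBB O859 and the further HBB probe, which was chosen after its values had been seen and also passed without CR TN 1, and 1 to 5 with 1 array left out. Of the list probes 1 passed with the processed signal, slide fixed and slide random, CD163 A_72_P170001 (-0.72, -0.25 and -0.25; adjusted p = 0.0352, 0.0488 and 0.0451). The cause of these changes was not tested.

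Among values with a test, signs turned for these. The ALAS2 slope was 0.063 with the processed signal, 0.049 with array weights and 0.055 without the pair (-0.074 to 0.021 with 1 array left out). LDB1 was -0.001 with normexp, -0.007 with array weights, -0.0008 without breed and -0.018 without the pair (-0.017 to 0.022). GP9 was 0.0003 with slide fixed (-0.017 to 0.003). FSHB was -0.006 with slide fixed, -0.042 with array weights, -0.0004 without breed and -0.101 without the pair (-0.055 to 0.061). Among values without a test, HS minus TN of AHSP within CR turned to 0.08 (O4980) and 0.20 (A_72_P385718) with array weights and to 0.12 and 0.24 without the pair; the repeat probe also turned without CR HS 1 or CR HS 5. SLC4A1 turned to 0.06 with array weights, 0.09 without the pair and 0.03 without either array of it, and ALAS2 and TC558094 turned to values within 0.02 of 0. No paired analysis was possible because replicates were numbered in accession order and pair no arrays. HBE1 and the further HBB probe lie near background, where signal limits their size.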
